A study of Homo sapiens with 12 samples.

Results

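The measurements below concern 7 genes of the cell's cholesterol supply: PMVK, MVD, IDI1, SQLE, EBP, SREBF2 and STARD4. They were picked by gene symbol from the deposited count tables, which list 25718 genes, and all 7 were present. Each also had a mean above 10 counts over the samples, the filter that left 11451 genes for testing. PMVK, MVD and IDI1 encode enzymes of the mevalonate pathway, SQLE and EBP encode enzymes between squalene and cholesterol, SREBF2 encodes the transcription factor SREBP-2, and STARD4 encodes a protein that carries sterol between membranes inside the cell. None of the 7 encodes a receptor that brings cholesterol in from outside.

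The 12 samples were RNA-seq libraries of H9, an established human embryonic stem cell line, after 14 days of neural induction towards midbrain with CT0.8 and Shh at 200 ng/ml. All cells had been infected with a lentiviral vector at a multiplicity of infection of 50. The vector was Tet-regulated and carried miR-10a with GFP in the samples called miR-10a here, and miR-10b with GFP in those called miR-10b. In the miR-10a dox and miR-10b dox groups doxycycline, the agent that switches the vector on, was present from day 11 to day 14, and the miR-10a control and miR-10b control groups were cells with the same vector and no doxycycline. Each group had 3 replicates. No untransduced or GFP-only sample was analysed, so an effect of doxycycline or GFP cannot be told apart from one of the miRNA, and vector and culture cannot be told apart when miR-10b cells are set against miR-10a cells. Nothing in the labels says that replicates came from separate cultures, so that p-values measure the spread between these libraries, which may be technical.

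Cholesterol is built from acetyl-CoA in a long series of steps. Acetyl-CoA units are joined and reduced to mevalonate, which is phosphorylated, decarboxylated and isomerised into the isoprene units that make squalene, and squalene is then oxidised, closed into rings and trimmed to cholesterol. When sterol in the endoplasmic reticulum runs low, SREBP-2 is cut free from its membrane anchor and raises transcription of nearly every enzyme of the series, and for that reason these genes are commonly seen to move together. Dividing neural progenitors make most of their own cholesterol for new membrane, and a miRNA acts on an mRNA mainly by pairing of its seed, the bases near its 5′ end, with the 3′UTR.

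The sequences shown first are those of an induced miRNA, miR-10a, and of the stretches of the 7 genes it could pair with. The mature miR-10b strand was not among the sequences at hand. It is not shown, and all matches given here are to the seed of miR-10a. The mature miR-10a strand (RefSeq, GRCh38.p14, chromosome 17, minus strand, chr17:48579904-48579926) is shown first, with its seed, bases 2 to 8, in capitals. Among the 7 genes a single match to the seed was found in the 3′UTRs of GENCODE 44, in SREBF2 (GRCh37, plus strand, chr22:42302414-42302442, 2652 bases into a 3′UTR of 3537 bases). In that line the capitals mark the 7 bases that pair with bases 2 to 7 of the miRNA and carry an A opposite its base 1.
hsa-miR-10a-5p: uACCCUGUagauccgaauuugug
SREBF2 3′UTR site: tagcccaagctCAGGGTAggcccaggggg

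No match of 6 or more seed bases was found in the 3′UTR of PMVK (389 bases), MVD (591 bases), IDI1 (2035 bases), SQLE (338 bases), EBP (259 bases) or STARD4 (3853 bases). Among 9269 tested genes that have a 3′UTR in this annotation, 56.1% likewise had none and 21.3% had at best a 6-base match. The best match was of the SREBF2 kind in 5.15% and a match to bases 2 to 8 in 14.7%. Other sterol and fatty acid genes named below did carry matches. TMEM97 had 2 to bases 2 to 8, 1 of the SREBF2 kind and 1 of 6 bases. LSS had 2 to bases 2 to 8 and 2 of 6 bases. INSIG2 and ABCA1 each had 1 to bases 2 to 8. SCD had 3 of 6 bases and HMGCS1 had 1 of 6 bases. ACAT2, FASN, MYLIP, MBTPS1, INSIG1, SREBF1 and DHCR7 had none. The part of such matches in any change was not tested.

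The promoters of IDI1 and STARD4 are shown because these were 2 of the genes that fell, and that of SREBF2 because it held the searched core of the sterol regulatory element. Each RefSeq window (GRCh38.p14) runs from 250 bases before the annotated start to 49 after it, and the windows are those of IDI1 (minus strand, chr10:1056655-1056954, 1 of 3 listed for the gene), STARD4 (minus strand, chr5:111512486-111512785) and SREBF2 (plus strand, chr22:41832855-41833154). Capitals mark every match to the core of the sterol regulatory element (TCACNCCAC), to the CCAAT box (CCAAT) and to the GC box (GGGCGG). Matches were searched on both strands, so that a CCAAT box on the other strand reads ATTGG and a GC box CCGCCC, and neighbouring GC boxes may share bases.
IDI1 promoter: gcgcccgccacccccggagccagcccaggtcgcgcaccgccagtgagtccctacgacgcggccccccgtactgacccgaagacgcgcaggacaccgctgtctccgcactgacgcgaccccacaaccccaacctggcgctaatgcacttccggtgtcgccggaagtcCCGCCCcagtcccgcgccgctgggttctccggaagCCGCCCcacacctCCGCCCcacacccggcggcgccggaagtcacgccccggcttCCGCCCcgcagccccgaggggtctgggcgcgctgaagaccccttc
STARD4 promoter: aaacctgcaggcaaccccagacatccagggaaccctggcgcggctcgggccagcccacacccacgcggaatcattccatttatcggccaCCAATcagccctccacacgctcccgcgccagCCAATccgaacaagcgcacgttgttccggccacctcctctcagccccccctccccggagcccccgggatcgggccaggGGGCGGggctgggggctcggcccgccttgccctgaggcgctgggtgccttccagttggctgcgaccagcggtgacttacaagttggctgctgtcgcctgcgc
SREBF2 promoter: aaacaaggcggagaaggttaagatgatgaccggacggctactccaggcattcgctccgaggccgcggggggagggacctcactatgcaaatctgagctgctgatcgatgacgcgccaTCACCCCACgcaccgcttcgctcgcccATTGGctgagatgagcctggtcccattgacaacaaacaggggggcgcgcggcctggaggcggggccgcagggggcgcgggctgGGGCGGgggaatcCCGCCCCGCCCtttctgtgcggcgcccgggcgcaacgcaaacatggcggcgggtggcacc

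A promoter window was listed for 6 of the 7 genes, and SQLE had none. The sterol element core was found in 1 of the 6, SREBF2, at -133 to -125 from the start, against 1.15% of all 27305 promoters and 0 of the 47 windows of the other sterol and fatty acid genes listed below. Only this exact string was searched, so that a window without it may hold another form of the element. A CCAAT box stood in 4 of the 6 (MVD, EBP, STARD4 and SREBF2), against 35.7% of all promoters and 21 of the 47. A GC box stood in 6 of the 6, against 44.6% of all promoters and 38 of the 47. STARD4 carried CCAAT boxes at -161 and -130 and a GC box at -52, whereas IDI1 carried 4 GC boxes between -84 and 10 and no CCAAT box. EBP and MVD each held 3 CCAAT boxes, those of EBP between -191 and -26 and those of MVD between -159 and -81. These are descriptions of letters in a window and say nothing about binding.

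Total counts were between 10545487 and 14165426 per sample, and every control library was deeper than every dox library of its vector. The precursor rows fitted the labels: MIR10A had 7502 to 8801 counts in miR-10a dox and 8 to 17 in miR-10a control, and MIR10B had 29615 to 31908 counts in miR-10b dox and 39 to 56 in miR-10b control. Libraries of a group differed by a chi-square per degree of freedom of 1.20 to 1.81, except in the 2 pairs with replicate 2 of miR-10b dox, where it was 2.92 and 3.73. For SQLE, IDI1 and STARD4 values without that library are given beside the results. All 7 neural progenitor markers examined were tested and their summed level was 10354 to 12066 CPM (the count divided by the sample's total and multiplied by 1000000) over the 12 samples. Of 7 ventral midbrain floor plate markers 6 were tested, with SHH and FOXA1 the most abundant. OTX2, with a mean of 6.25 counts, was not tested. LMX1A, FOXA2 and CORIN had means of 60.7, 94.5 and 149 counts. These and OTX2 have several listed transcripts. Of 6 pluripotency markers NANOG was at 0 in every sample, and POU5F1 (OCT4), TDGF1, PRDM14 and L1TD1 had a mean under 1 count, although all of these but PRDM14 have several listed transcripts. DPPA4, the only tested one, had a mean of 1551 counts, and the 6 summed to 102 to 155 CPM. Endoderm markers summed to at most 0.556 CPM.

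Seen per kilobase of transcript, so that genes can be compared, the order of levels over the 12 samples was SQLE (mean 199 CPM per kilobase), IDI1 (143), MVD (74.6), EBP (72.4), STARD4 (43.9), PMVK (34.7) and SREBF2 (1.19). The ranges of MVD (67.5 to 78.3) and EBP (68.1 to 77.0) covered each other, so these neighbours did not differ beyond their spread. STARD4 (35.1 to 48.4) and PMVK (33.0 to 36.8) met only at the lowest STARD4 sample, replicate 2 of miR-10b dox. The other neighbours were apart in every sample. The scatter between replicates was small: the coefficient of variation of SQLE within a group was 0.717% to 2.38%, and that of STARD4 was 1.91% to 3.55% in all groups but miR-10b dox, where it reached 9.57%. The low place of SREBF2 is not a measure of its mRNA. Its protein-coding transcript row (NM_004599) held 0 counts in all samples, and the 68 to 113 counts of the gene lay on a second, non-coding row (NR_103834).

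**Figure D1:**
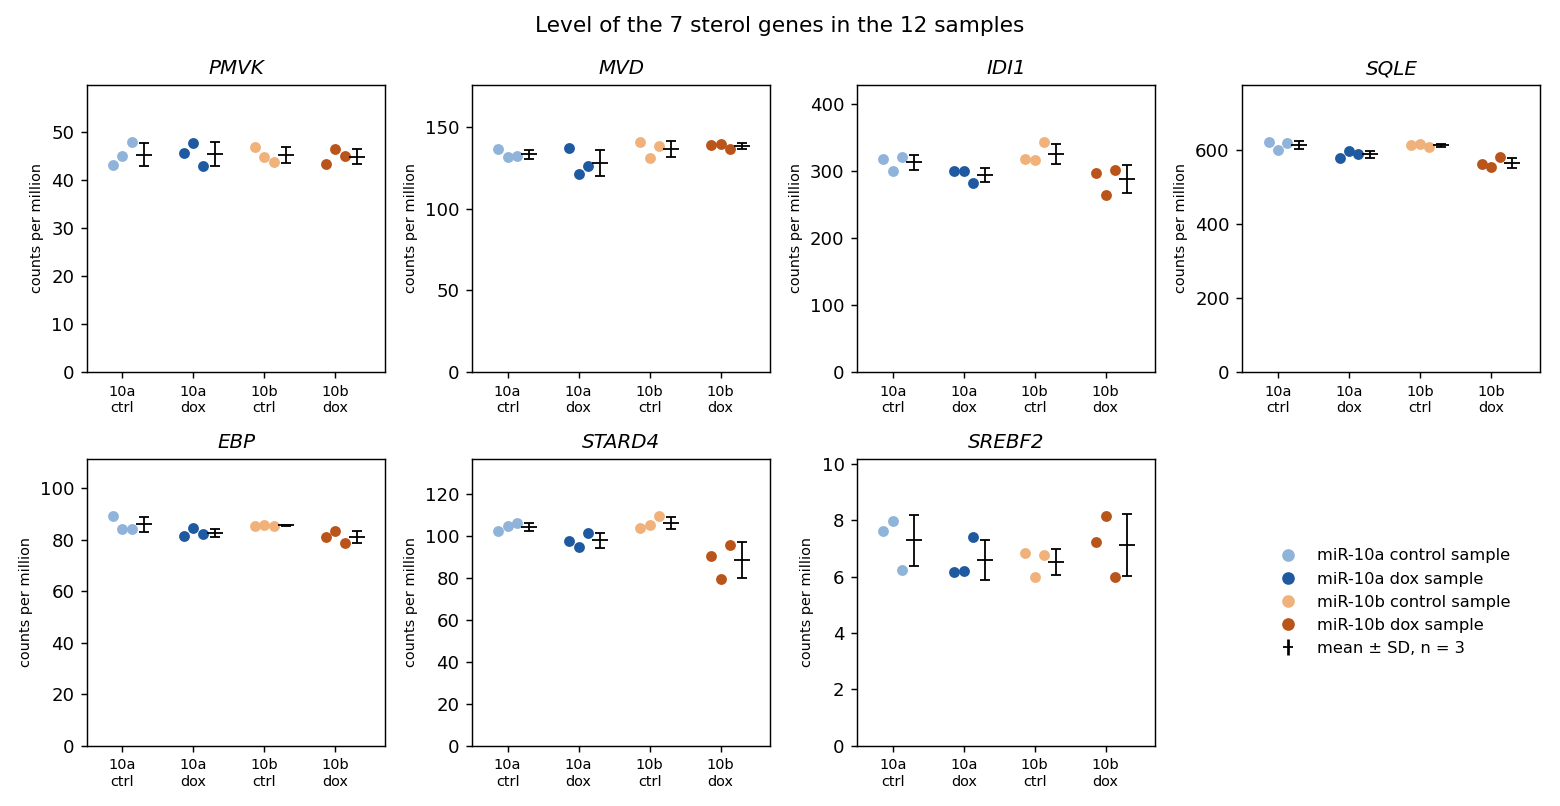
CPM (vertical axes from 0, 1 panel per gene) of the 7 genes in each of the 12 samples, by group, with the mean ± SD of 3 replicates beside the points. The dox samples of SQLE, IDI1 and STARD4 lie below their controls with both vectors by a small share of the level, and in PMVK, MVD and SREBF2 the groups overlap.

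The comparisons asked whether doxycycline changed each gene in miR-10a cells, whether it did so in miR-10b cells, and whether these effects differed. SQLE, IDI1 and STARD4 were lower with doxycycline in miR-10b cells, in that order by log2 fold changes of -0.12, -0.18 and -0.26, and the other 4 genes did not pass the test. In miR-10a cells 0 of the 7 passed the edgeR test, in either direction. At an unadjusted p under 0.05 this test held 1 of the 7, IDI1, and DESeq2 called 0 after adjustment, with no adjusted p for 1 of them. For scale, 7.15% of all 11451 tested genes were called lower and 15.3% were called in either direction with miR-10b. With miR-10a these shares were 0.742% and 1.21%. The split depended on scaling: of the called genes 46.6% were lower with miR-10b and 61.2% with miR-10a, against 61.9% and 72.1% with the size factors of DESeq2. Since RNA of whole cultures was sequenced, fewer cells that express a gene and less of its RNA per cell cannot be told apart.

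SQLE (NM_003129, 2989 bases, GRCh37 chromosome 8, plus strand, from 126010739 to 126034525) encodes squalene epoxidase, which adds the first oxygen to squalene and is a slow step of the later pathway. It had the highest level of the 7. In miR-10b control the 3 samples had 614, 617 and 608 CPM and in miR-10b dox 561, 556 and 581 CPM, so that every dox sample was below every control sample. The log2 fold change was -0.12 (SE 0.03, 95% interval -0.18 to -0.05, adjusted p = 0.00655), a level that fell by 7.67%. Without replicate 2 of miR-10b dox it was -0.10 (adjusted p = 0.0138). In miR-10a control the samples had 621, 600 and 620 CPM and in miR-10a dox 578, 599 and 589 CPM. These groups did not overlap either, but the highest dox sample and the lowest control sample were only just apart, and the log2 fold change of -0.06 (95% interval -0.12 to 0.00) had an adjusted p of 0.459.

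IDI1 (NM_004508, 2136 bases, GRCh37 chromosome 10, minus strand, from 1085092 to 1095059) encodes isopentenyl diphosphate isomerase, which interconverts both isoprene units. The level was 319, 316 and 343 CPM in miR-10b control and 297, 264 and 303 CPM in miR-10b dox, without overlap. The log2 fold change was -0.18 (SE 0.04, 95% interval -0.26 to -0.09, adjusted p = 0.00230), a level that fell by 11.6%. Replicate 2 of miR-10b dox was the lowest sample of all 12, and without it the log2 fold change was -0.12 (adjusted p = 0.0197). In miR-10a cells the controls had 318, 301 and 321 CPM and the dox samples 300.5, 301 and 283 CPM. Here too no dox sample exceeded a control, the closest values being 300.9 with doxycycline and 301.01 without it, and the log2 fold change was -0.09 (95% interval -0.17 to 0.00, adjusted p = 0.429). An antisense gene, IDI2-AS1, shares 643 exonic bases with IDI1 in the annotation and was at 0 or 1 count in every sample on each of its rows.

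STARD4 (NM_139164, 2264 bases, GRCh37 chromosome 5, minus strand, from 110831731 to 110848288) had the largest estimated change of the 7 with miR-10b. Control samples were at 104, 105 and 110 CPM and dox samples at 90.8, 79.4 and 96.0 CPM, so that the groups were apart and the dox samples were the more scattered. The log2 fold change was -0.26 (SE 0.05, 95% interval -0.36 to -0.16, adjusted p = 0.000236), a level that fell by 16.5%. Replicate 2 was again the lowest, and the log2 fold change without it was -0.19 (adjusted p = 0.00260). In miR-10a cells the controls had 102, 105 and 106 CPM and the dox samples 97.8, 94.7 and 102 CPM, without overlap, with a log2 fold change of -0.09 (95% interval -0.19 to 0.01, adjusted p = 0.508). The antisense gene STARD4-AS1, named here after its values were seen because it shares 124 exonic bases with STARD4, had a mean over the samples of 2449 counts and a log2 fold change with miR-10b of 0.14 (SE 0.04, adjusted p = 0.0193). DESeq2 did not call STARD4-AS1 (adjusted p = 0.0788), and the edgeR call was lost with thinned counts (0.0574), with miR-10b samples alone (0.0509), and without replicate 1 (0.0894) or 3 (0.129) of miR-10b dox or replicate 1 (0.0988) or 2 (0.0506) of miR-10b control. The counting is not stated to use strand, and without it reads of the shared bases cannot be told apart.

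**Figure D2:**
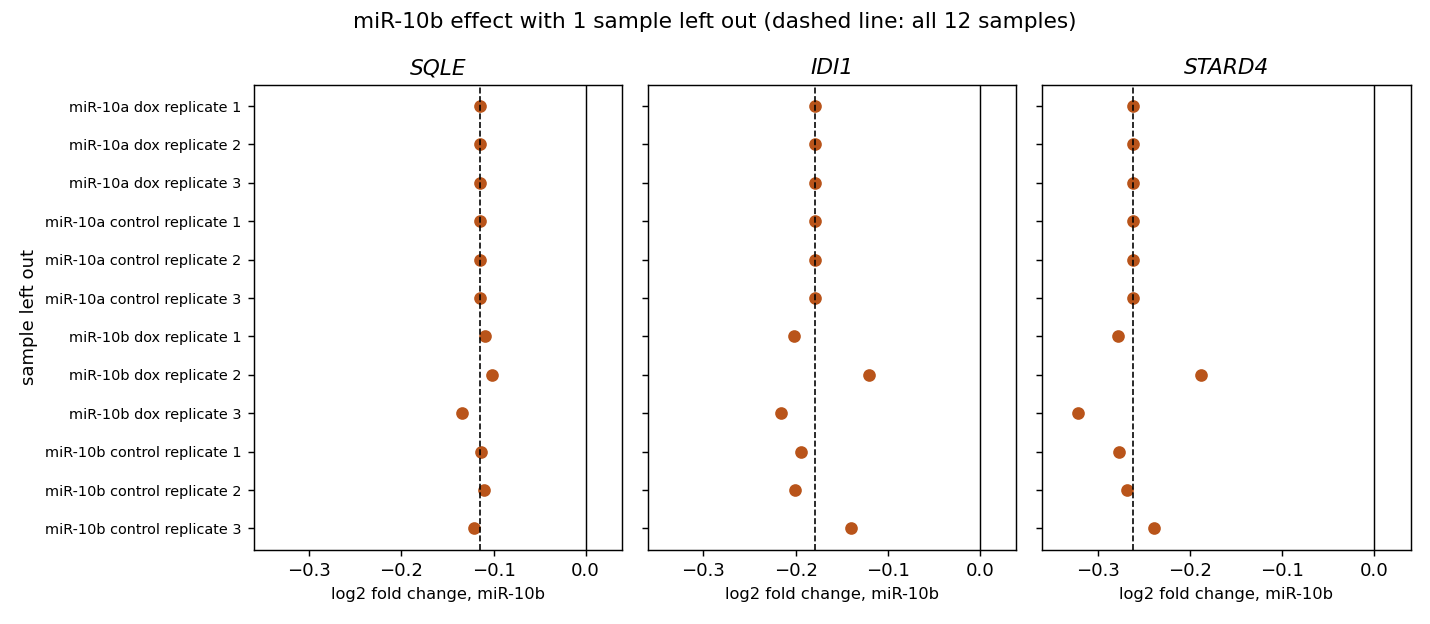
Log2 fold change of SQLE, IDI1 and STARD4 with miR-10b (horizontal axes) when 1 of the 12 samples is left out (rows), with the estimate from all samples as a dashed line. For IDI1 and STARD4 the value nearest 0 is the one without replicate 2 of miR-10b dox, -0.12 and -0.19, and all points lie below 0.

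EBP (NM_006579, 1157 bases, GRCh37 chromosome X, plus strand, from 48380187 to 48387104) encodes the isomerase that shifts a double bond in the sterol ring, the emopamil binding protein. In miR-10b control it had 85.5, 85.7 and 85.3 CPM and in miR-10b dox 81.0, 83.5 and 78.8 CPM. These groups were apart, yet the log2 fold change of -0.08 (SE 0.04, 95% interval -0.17 to 0.01) had an adjusted p of 0.268. In miR-10a cells the groups overlapped, at 89.1, 84.3 and 84.3 CPM against 81.4, 84.5 and 82.0 CPM, with a log2 fold change of -0.05 (SE 0.04, adjusted p = 0.716). GENCODE lists a further protein-coding gene on the same strand that shares 644 exonic bases with EBP.

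PMVK (NM_006556, 1299 bases, GRCh37 chromosome 1, minus strand, from 154897216 to 154909195) encodes phosphomevalonate kinase, which adds the second phosphate to mevalonate. Its level was 43.0 to 47.8 CPM in miR-10a control, 42.9 to 47.7 in miR-10a dox, 43.7 to 46.9 in miR-10b control and 43.2 to 46.3 in miR-10b dox, so that the 4 groups covered the same range. The 95% interval of its log2 fold change was -0.11 to 0.13 with miR-10a and -0.13 to 0.11 with miR-10b, which leaves room for a change as large as that of SQLE. MVD (NM_002461, 1795 bases, GRCh37 chromosome 16, minus strand, from 88718343 to 88729569) encodes mevalonate diphosphate decarboxylase, the step that makes the first isoprene unit and directly precedes IDI1. Its groups overlapped as well, at 131 to 141 CPM in miR-10b control and 136 to 139.7 CPM in miR-10b dox. The interval for MVD was -0.14 to 0.03 with miR-10a and -0.07 to 0.11 with miR-10b, and the latter does not reach the estimate of IDI1 in the same cells.

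SREBF2 (ENSG00000198911, GRCh37 chromosome 22, plus strand, from 42229109 to 42303310), the one gene of the 7 with a seed match, was measured only through its non-coding row. The counts were 68, 75 and 78 in miR-10a dox, 95, 113 and 78 in miR-10a control, 86, 95 and 72 in miR-10b dox and 86, 81 and 90 in miR-10b control, so that the groups overlapped with both vectors. The log2 fold change was -0.15 (95% interval -0.44 to 0.13) with miR-10a and 0.12 (95% interval -0.15 to 0.40) with miR-10b. Intervals this wide include no change and changes larger than any seen among the other 6 genes, and a change of the SREBF2 protein-coding mRNA was not detectable from these counts. SREBF2-AS1 shares 731 exonic bases with it on the opposite strand.

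**Figure D3:**
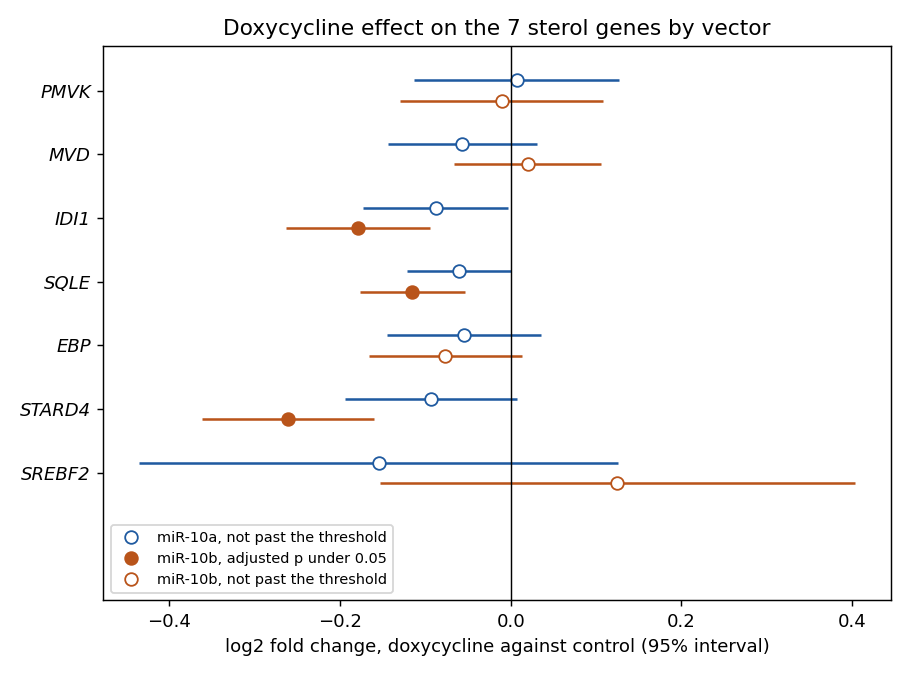
Log2 fold change with doxycycline (horizontal axis; points are estimates and lines 95% intervals) of the 7 genes for miR-10a and miR-10b, with filled points where the adjusted p was under 0.05. SQLE, IDI1 and STARD4 pass the threshold with miR-10b and 0 genes pass it with miR-10a, and the SREBF2 lines are the widest.

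The 3 dox and 3 control samples of each vector were compared gene by gene with a two-sided exact permutation test, which cannot give a p below 0.1. That value was reached in miR-10a cells by IDI1, SQLE and STARD4, 3 of the 7, and in miR-10b cells by these and EBP, 4 of the 7, in each case with all dox samples below all controls. Among all tested genes this lower ordering was found for 7.75% with miR-10a, for 12.3% with miR-10b and for 2.95% with both, the last including IDI1, SQLE and STARD4. The vectors have separate controls, so that these orderings rest on different samples.

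Averaged over both vectors, the log2 fold change was -0.18 for STARD4 (SE 0.04, adjusted p = 0.000427), -0.13 for IDI1 (SE 0.03, adjusted p = 0.00155) and -0.09 for SQLE (SE 0.02, adjusted p = 0.00386). Without replicate 2 of miR-10b dox these were -0.14, -0.10 and -0.08, and all 3 passed. EBP, at -0.07 (SE 0.03, adjusted p = 0.175), and PMVK, MVD and SREBF2, all between -0.02 and 0.00, did not pass. Thus 3 of the 7 were called lower and 0 higher, beside 6.22% of all tested genes called lower and 13.9% called in either direction. Lower genes made up 44.8% of those called with total counts, 56.2% with TMM factors and 61.6% with DESeq2. The estimate was below 0 for 7 of the 7, and for 44.6% of all tested genes. That count includes PMVK at -0.0017 and SREBF2 at -0.01; PMVK was at 0.0092 with thinned counts, and leaving out 1 sample could turn PMVK, MVD or SREBF2 positive. Over the 7 genes the median was -0.07 on the log2 scale, beside 0.01 for all tested genes. Because all dox libraries were shallower, the fits were repeated on counts thinned to the smallest total, where STARD4 (-0.17, adjusted p = 0.00114), IDI1 (-0.13, adjusted p = 0.00227) and SQLE (-0.09, adjusted p = 0.00354) were as low.

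The effects of the vectors were then compared directly. With miR-10b the estimate lay further below 0 than with miR-10a for STARD4 (difference -0.17, SE 0.07, adjusted p = 0.268), IDI1 (difference -0.09, SE 0.06, adjusted p = 0.544) and SQLE (difference -0.05, SE 0.04, adjusted p = 0.632). Without replicate 2 of miR-10b dox these differences were -0.09, -0.03 and -0.04, and that of IDI1 was -0.05 without replicate 3 of miR-10b control. Of the 7 genes 0 passed this test of the difference in edgeR or DESeq2, which gave no adjusted p for 1 of them, and at an unadjusted p under 0.05 the edgeR test held 1, STARD4. The calls in miR-10b cells and their absence in miR-10a cells are therefore not shown to differ. The share of all tested genes that passed the test of the difference was 1.96%, and 70.5% of these were more negative with miR-10b (88.2% with DESeq2). Between the uninduced cells of both vectors 0 of the 7 passed the edgeR test, 0 had an unadjusted p under 0.05 and DESeq2 called 0, with log2 differences from -0.16 for SREBF2 to 0.06 for IDI1. Of all tested genes 14.1% passed in that comparison. For the 6 genes with a single transcript these estimates were all within 0.06 of 0 on the log2 scale.

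Some cell type markers moved in the same comparison. In miR-10b cells, the floor plate marker CORIN (log2 fold change -0.77, adjusted p = 6.28e-08), the collagens COL1A1 (-0.60, adjusted p = 9.98e-09) and COL3A1 (-0.21, adjusted p = 0.000377) and the progenitor marker NES (-0.14, adjusted p = 0.000338) were lower with doxycycline. HES5 was also called lower and MSI1 and INA higher, but leaving out 1 library lost these calls in 5, 3 and 6 of the 12 fits. DESeq2 called the same 5 lower and 0 higher, and gave no adjusted p for 2 of the 23 tested markers. Of the 6 tested floor plate markers 1, CORIN, was called lower by edgeR and 0 were called higher. From miR-10b control to miR-10b dox, mean CPM rose for FOXA2 (8.20 to 9.48), LMX1A (5.88 to 7.12) and EN1 (102 to 106). It fell for SHH (626 to 601) and FOXA1 (591 to 581). The 5 measured mesoderm and fibroblast markers summed to 323 to 341 CPM in miR-10b control and to 267 to 288 CPM in miR-10b dox, against 129 to 132 and 131 to 146 CPM in miR-10a cells. With miR-10b, mean CPM went from 102 to 67.4 for COL1A1 and from 135 to 117 for COL3A1. TWIST1 hardly moved (93.2 to 92.7 CPM), and MESP1 and T had means of 5.67 and 0.083 counts. The 6 neuron markers, of which 3 were tested, summed to 553 to 579 CPM in miR-10b control and 594 to 620 CPM in miR-10b dox. Nearly all of this sum was INA, with means of 554 and 591 CPM in these groups. Mean CPM also rose for TUBB3 (13.9 to 16.1), STMN2 (0.882 to 1.12) and DCX (0.101 to 0.196). It fell for GAP43 (0.657 to 0.425) and ELAVL4 (0.839 to 0.675). The part of these markers in the change of SQLE, IDI1 and STARD4 was not tested. In miR-10a cells 0 of the 23 tested markers were called by edgeR or DESeq2, and 4 had an unadjusted p under 0.05 in edgeR. DESeq2 gave no adjusted p for 4 of the 23 there. Between the uninduced cells of both vectors the markers did differ. Of the 23, edgeR called 2 lower and 11 higher in miR-10b control, against 14.1% of all tested genes called in either direction. DESeq2 called 2 and 10, with no adjusted p for 1. Mean CPM was 52.2 in miR-10a control and 22.2 in miR-10b control for SOX1, and 35.1 and 135 for COL3A1.

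The rest of the pathway was followed through 6 lists with 65 genes found in the files, the 7 included. Of the 58 other genes, 24 have 1 listed transcript, with a median of 944 counts, and 22 of these could be tested. The other 34 have several listed transcripts, a median of 9.96 counts, 17 tested genes and 5 genes at 0 in all samples, DHCR7 among them. Reads that fit several transcripts of a gene appear not to have been counted, so that a low count of such a gene is no sign of low expression. All 7 of the 58 genes called over both vectors belong to the 22 tested genes with 1 transcript. Of the 17 with several, edgeR and DESeq2 called 0, and 2 had an unadjusted p under 0.05 in edgeR. DESeq2 gave no adjusted p for 11 of these 17, so that it could not call them.

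**Figure D4:**
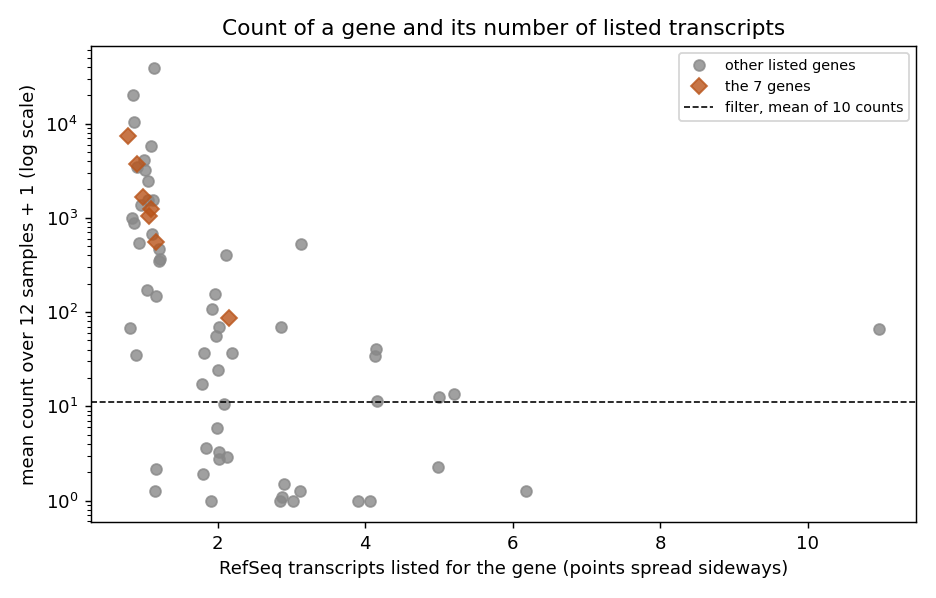
Mean count over the 12 samples plus 1 (vertical log axis) against the number of RefSeq transcripts listed (horizontal axis) for the 65 sterol and fatty acid genes, with the filter of 10 counts as a dashed line. Genes with 1 transcript lie mostly above 100 counts, and SREBF2, at 2 transcripts, is the lowest of the 7 genes.

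Among the enzymes from acetyl-CoA to squalene, 8 of 9 listed genes were tested, 2 fell over both vectors (IDI1 and ACAT2) and 0 rose. ACAT2, the cytosolic thiolase of the first step, went from 352 ± 9.20 CPM in miR-10b control to 296 ± 14.9 CPM in miR-10b dox (mean ± SD, n = 3) and from 354 ± 4.12 to 335 ± 7.00 CPM in miR-10a cells, with a log2 fold change over both of -0.17 (SE 0.02, adjusted p = 6.67e-06). HMGCS1, the synthase of the second step, had a mean of 35.8 counts and a log2 fold change of -0.16 with an SE of the same size.

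Of 11 enzymes from squalene to cholesterol 7 were tested, 1 fell (SQLE) and 0 rose. LSS, which closes the rings, had a mean of 39.3 counts and a log2 fold change over both vectors of -0.35 (SE 0.13, adjusted p = 0.0745), and DHCR7, a reductase of the final steps, was at 0 counts throughout.

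Of 12 uptake and transport genes 7 were tested, 2 fell (STARD4 and TMEM97) and 1 rose. TMEM97, the sigma-2 receptor of the endoplasmic reticulum, which binds the cholesterol transporter NPC1, fell with both vectors: from 537 ± 13.8 to 488 ± 11.3 CPM in miR-10a cells (log2 fold change -0.14, SE 0.03, adjusted p = 0.0100) and from 486 ± 0.567 to 357 ± 4.94 CPM in miR-10b cells (-0.44, SE 0.03, adjusted p = 4.69e-13). The miR-10a call of TMEM97 was lost in 4 of the 12 fits that left out 1 library: without replicate 1 (adjusted p = 0.0594) or 3 (0.102) of miR-10a dox and without replicate 1 (0.0887) or 3 (0.0966) of miR-10a control. MYLIP, a ubiquitin ligase that marks lipoprotein receptors for breakdown, rose over both vectors by a log2 fold change of 0.15 (SE 0.05, adjusted p = 0.0246), a call that DESeq2 did not make (adjusted p = 0.106) and that was lost with thinned counts (0.0640). It was also lost without replicate 1 of miR-10a dox (adjusted p = 0.0777), replicate 2 of miR-10a control (0.0636) or replicate 3 of miR-10b dox (0.0536).

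Of 9 regulators of SREBP processing 8 were tested, 1 fell and 1 rose. INSIG2, which holds the SREBP complex in the endoplasmic reticulum, fell by 0.18 on the log2 scale over both vectors (SE 0.05, adjusted p = 0.0180), and it did not pass without replicate 2 of miR-10b dox (-0.12, adjusted p = 0.0638), replicate 3 of miR-10a dox (adjusted p = 0.0530) or replicate 3 of miR-10a control (0.0702). MBTPS1, the protease that makes the first cut in SREBP, rose over both vectors by a log2 fold change of 0.13 (SE 0.03, adjusted p = 0.00125). Its call with miR-10b was lost in DESeq2 (adjusted p = 0.0515) and without replicate 1 of miR-10b dox (0.112) or replicate 3 of miR-10b control (0.150). INSIG1, the sterol-regulated partner of INSIG2, had a mean of 68.3 counts, with a log2 fold change of 0.05 (SE 0.11) that was -0.03 without replicate 2 of miR-10b dox, and SREBF1, which encodes the related factor SREBP-1, had at most 4 counts in any sample and was not tested.

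Of 11 genes of efflux and esterification 5 were tested, and 0 of them were called over both vectors by edgeR or DESeq2, with 1 at an unadjusted p under 0.05. DESeq2 gave no adjusted p for 1 of the 5. With miR-10b 1 rose in edgeR, ABCA1, the exporter of cholesterol to apolipoprotein, by a log2 fold change of 0.12 (SE 0.04, adjusted p = 0.0417), and DESeq2 did not call it. The edgeR call was lost in 7 of the 12 fits that left out 1 library, namely all miR-10b libraries but replicate 2 of dox, and replicates 1 of dox and 3 of control with miR-10a.

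Of 13 genes of fatty acid synthesis, a neighbouring pathway under the control of SREBP-1, 11 were tested, 2 fell and 0 rose over both vectors. SCD, the desaturase that makes oleate, was the most abundant gene of the lists at a mean of 39309 counts, and it fell with miR-10a (log2 fold change -0.16, SE 0.03, adjusted p = 0.000759) and with miR-10b (-0.28, SE 0.03, adjusted p = 4.45e-09). FASN, the fatty acid synthase, fell over both vectors by 0.09 (SE 0.02, adjusted p = 0.00418).

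Over the 6 lists 46 genes were tested. The numbers called lower and higher were 8 and 2 over both vectors, 9 and 3 with miR-10b and 2 and 0 with miR-10a. Of all tested genes 6.22% were called lower and 7.67% higher over both vectors, 7.15% and 8.18% with miR-10b, and 0.742% and 0.472% with miR-10a. DESeq2 called 9 and 1 of the listed genes over both vectors and 10 and 1 with miR-10b. It gave no adjusted p for 12 and 11 of the 46 genes in these comparisons. Leaving out 1 library gave 7 to 10 lower and 1 to 4 higher in both of these comparisons. Over both vectors the number higher was 1 without replicate 1 of miR-10a dox or replicate 3 of miR-10b dox and 4 without replicate 2 of miR-10b dox, and with miR-10b it was 1 without replicate 1 of miR-10b dox or replicate 3 of miR-10b control. Without the 7 genes, the 39 others gave 5 and 2 over both vectors, and their median log2 fold change was -0.01, beside 0.01 for all tested genes. The genes that rose, MYLIP and MBTPS1, encode the ligase and the protease named above.

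**Figure D5:**
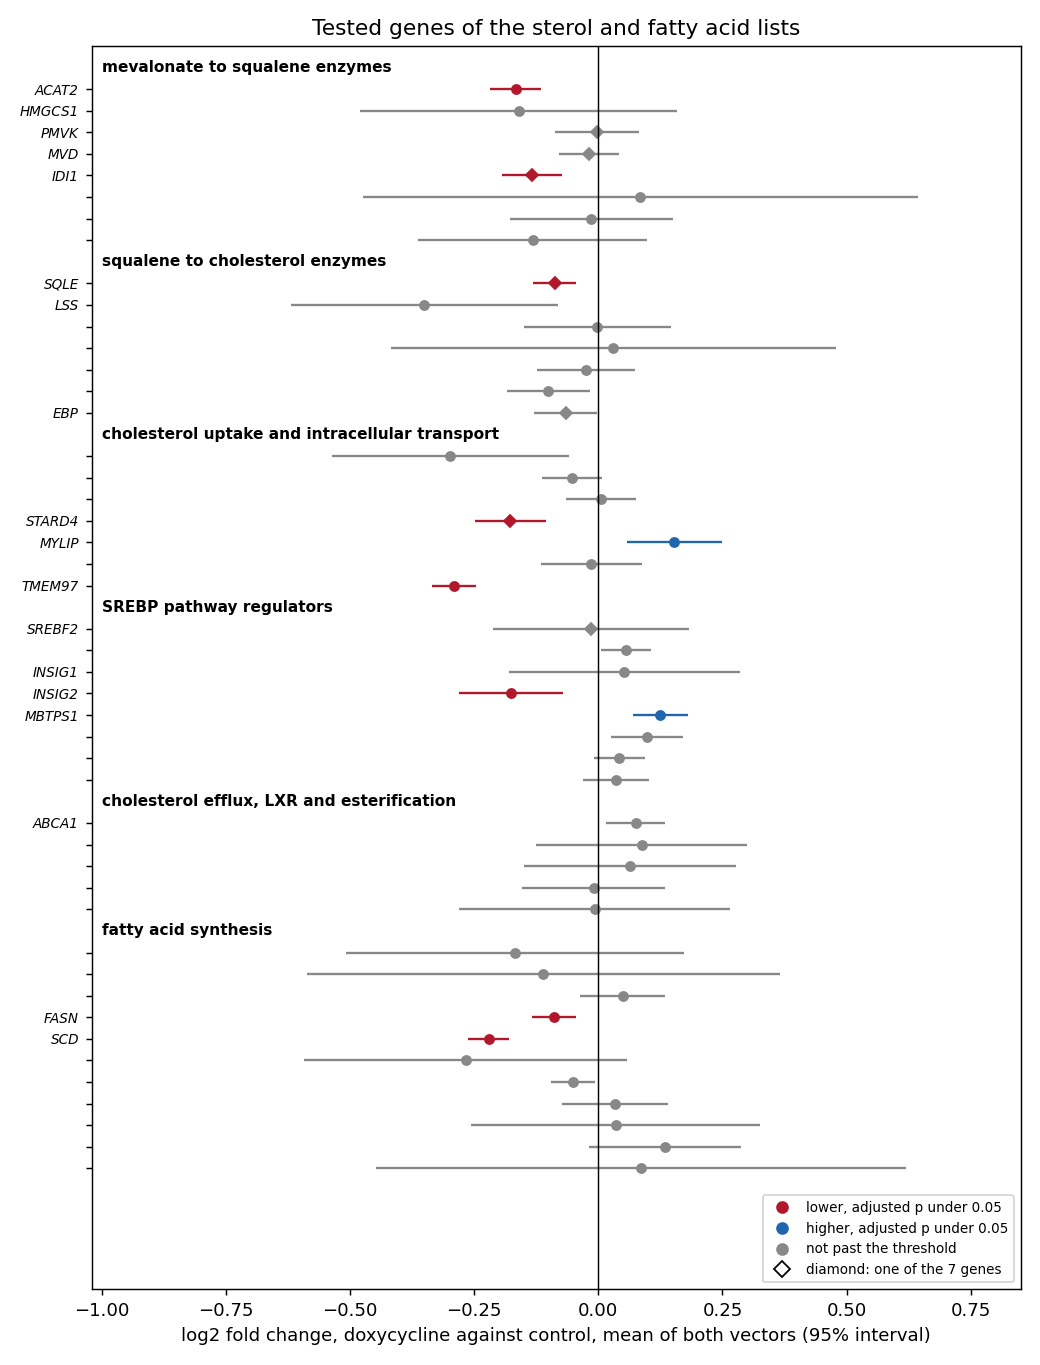
Log2 fold change averaged over both vectors (horizontal axis; points are estimates, lines 95% intervals) of the 46 tested genes in 6 lists ordered by step, with red for called lower, blue for called higher and diamonds for the 7 genes; only genes named in the text carry a label. Red points occur in 5 of the 6 lists, and the widest lines belong to genes with few counts.

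Finally, the genes whose pattern over the 12 samples was nearest to the mean pattern of the 7 were looked up among 6970 genes with a mean of at least 100 counts. The measure was the root mean square difference of log2(CPM + 1), each gene centred on its own mean. The nearest 5 were EFCAB14 (0.0161), GLOD4 (0.0250), RNF169 (0.0255), C5orf51 (0.0258) and PSMB7 (0.0277), and none of them is on the sterol lists. The mean pattern of the 7 was -0.03 in miR-10a dox, 0.04 in miR-10a control, -0.04 in miR-10b dox and 0.03 in miR-10b control on this log2 scale. EBP (0.0290) and SQLE (0.0323) lay nearest to it among the 7, and SREBF2 (0.134) and STARD4 (0.0966) furthest. Each of the 7 is itself part of this mean, so that these distances cannot be set against those of the 5 genes above. The mean gives all 7 equal weight, including SREBF2 with its non-coding row.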

How the data were processed

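Members and gene lists were chosen with earlier results of these data known. The authors mapped reads to hg19 and deposited raw counts per RefSeq transcript, 1 file per sample; STAR, featureCounts and Subread are named in the submitters' processing notes without versions or settings. Whether counting used strand is not given in the sources used here. The study's methods and the labels name different extraction and library kits. Of 51799 rows per file, 3698 repeats of a transcript, which had identical counts, were dropped, and the transcript with the highest mean count stood for a gene. Genes with 1 transcript held 92.8% of the counts. CPM are counts divided by the sample's total count and multiplied by 1000000.

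The quasi-likelihood test of edgeR 4.0.16 (R 4.3.3) was run on the counts of the 12 samples (4 group means, total count as library size, genes with a mean above 10 counts, Benjamini-Hochberg over all 11451 genes, threshold 0.05). Dox was compared with control within each vector, followed by the mean and the difference of these effects and miR-10b minus miR-10a controls. The code was tested on simulated counts. Alternatives were TMM, DESeq2 1.42.0, other filters, a replicate block, each vector alone, counts summed over transcripts, thinned counts and leaving out each sample. Single genes were compared by exact permutation with scipy 1.17.1, on CPM or log2(CPM + 1). Besides the 7 genes, named were 5 textbook genes (HMGCS1, INSIG1, SREBF1, LSS, DHCR7), from each list at most 6 genes past the threshold over both vectors by size of log2 fold change, the 5 nearest in pattern and the precursors; ABCA1 and STARD4-AS1 were named after their values were seen. Of the listed genes 4 are not reported here and were left out of the counts over the lists. Seed matches used the longest 3′UTR of GENCODE 44 on GRCh37, and promoter windows came from RefSeq.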

Additional observations from a re-analysis of the deposited data

Results flagged for a closer look

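By the edgeR test of the difference, 5 of the genes named in the text responded to doxycycline differently in miR-10b and miR-10a cells, and 0 of these are among the 7. The values are the log2 fold change in miR-10b cells minus that in miR-10a cells. MIR10A (-9.36, adjusted p = 0.00693) and MIR10B (10.14, adjusted p = 1.68e-15) are the precursors that the vectors carry; the value of MIR10A rests on 0 to 2 counts in miR-10b cells and did not pass without replicate 1 or 3 of miR-10b control (adjusted p = 0.104 and 0.127). TMEM97, of the uptake and transport list, was at -0.30 (adjusted p = 3.71e-05), and with both vectors its dox samples lay below the controls without overlap. Uninduced miR-10b cells already differed from uninduced miR-10a cells in TMEM97, by -0.14 (adjusted p = 0.000711), and the part of this in the difference was not tested. The collagens COL1A1 and COL3A1 were at -0.65 (adjusted p = 9.75e-05) and -0.38 (adjusted p = 0.00176). The differences of TMEM97, MIR10B, COL1A1 and COL3A1 passed in all 12 fits that left out 1 library. Groups held 3 samples, too few for a test of single outlying samples.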

How the results depend on the processing

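The calls of SQLE, IDI1 and STARD4 with miR-10b and over both vectors passed the threshold under all alternatives and in all 12 fits without 1 sample, and the counts of members called were 0 with miR-10a, 3 with miR-10b and over both vectors, and 0 for the difference and between controls in each fit run. Leaving out a sample moved the miR-10b log2 fold change between -0.32 and -0.19 for STARD4, between -0.22 and -0.12 for IDI1 and between -0.13 and -0.10 for SQLE. The exact permutation test gave the same 3 and 4 genes at its smallest p on CPM and on log2(CPM + 1).

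Same-numbered dox and control samples did not deviate together (r from -0.03 to 0.0055, against -0.02 to 0.04 for other numbers), so no pairing by replicate number was seen. Outside replicate 2 of miR-10b dox, the scatter between libraries of a group was small, though above counting scatter (chi-square per degree of freedom 1.20 to 1.81). This check could therefore miss a shared culture. With a replicate block the genes called were 116 with miR-10a, 1638 with miR-10b, 1461 over both vectors and 218 for the difference, and 0, 3, 3 and 0 of the 7 genes. The block could give no value for the controls of both vectors, whose difference it absorbs.

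Over all tested genes, fitting miR-10a samples alone called 275 genes in place of 139, and no filter on low counts called 343 for the difference in place of 224. Leaving out 1 sample gave 75 to 268 genes with miR-10a, 268 without replicate 2 of miR-10b dox, 75 without replicate 1 of miR-10a dox, and 84 and 81 without replicates 1 and 3 of miR-10a control, and 140 to 339 for the difference, the highest without replicate 3 of miR-10b dox and the lowest without replicate 2 of miR-10a control. The causes were not tested. Results near 0 that were not called changed sign. With TMM factors, log2 values became -0.00087 for PMVK with miR-10a, and 0.0038 for PMVK, 0.0052 for SQLE and 0.00082 for EBP between controls. With DESeq2 they became -0.0041 for PMVK with miR-10a, -0.0011 for MVD with miR-10b, and 0.0030 for PMVK and 0.0043 for SQLE between controls. With thinned counts they became -0.0030, 0.021 and 0.0092 for PMVK with miR-10a, with miR-10b and over both, 0.025 for PMVK and 0.0052 for EBP in the difference, and 0.0082 for SQLE between controls. Without 1 sample the ranges were, with miR-10a, -0.032 to 0.047 for PMVK, with miR-10b, -0.035 to 0.017 for PMVK and -0.010 to 0.041 for MVD, and over both vectors, -0.021 to 0.018 for PMVK, -0.044 to 0.0016 for MVD and -0.068 to 0.041 for SREBF2. They were -0.058 to 0.022 for PMVK in the difference and, between controls, -0.036 to 0.037 for PMVK, -0.018 to 0.0068 for SQLE and -0.020 to 0.021 for EBP. Of the 7 genes SREBF2, at 68 to 113 counts, had the widest intervals.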
